A study of Mus musculus with 8 samples.

Results

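Hmgb1, Hspa1a and Hspd1 are the genes of endogenous danger signals on a quantitative PCR plate of the Toll-like receptor (TLR) pathway, which was run on mouse spleen. They were chosen by symbol, and all 3 were found among the 84 pathway genes of the plate (Hmgb1, UniGene Mm.313345, well B04; Hspa1a, Mm.6388, well B07; Hspd1, Mm.1777, well B08). Another 5 wells read housekeeping genes, which gives 89 genes in all. The study compared 7 days of R848 (resiquimod, a small-molecule agonist of TLR7) at 1 mg per kg per day with PBS, called Mock, in C57BL/6 wild-type mice, in TLR7-/- mice, which lack the receptor of R848, and in IFNAR-/- mice, which lack the type I interferon receptor. The age of the mice and the make-up of the mutant alleles are not given in the labels. The 8 samples form 6 groups, and each sample was RNA of whole spleen pooled from 3 mice, with 50 ng of RNA per reaction. Wild type was sampled in 2 experiments, of which the values used here are the mean per treatment, and each deficient strain was sampled in 1 experiment. No replicate error can therefore be given, no difference between columns was tested, and a gene was counted as higher or lower when it differed by 2-fold or more, as a description.

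HMGB1 is an abundant chromatin protein that bends DNA in the nucleus. Released from damaged or activated cells, it is sensed through TLR4, TLR2 and RAGE, and it can carry nucleic acids to endosomal TLRs. HSPA1A is the stress-inducible cytosolic HSP70 chaperone, and HSPD1 is the mitochondrial chaperonin HSP60; both have been described as danger signals outside the cell, through TLR2 and TLR4. The plate reads messenger RNA, so it does not bear on release of these proteins. Hsp90ab1, which encodes a constitutive cytosolic HSP90, is a heat-shock gene too, but on this plate it served as a reference.

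Both heat-shock genes carry, upstream of an annotated start, the inverted repeat bound by heat-shock factors, and those stretches are shown because the repeat is a feature that Hmgb1 lacked in its windows. The search covered the 250 bases before each start (RefSeq, GRCm38.p6) for a heat-shock element pair, GAANNTTC or TTCNNGAA; each form is its own reverse complement, so both strands were covered. In capitals are the matches, and the sequences run 5′ to 3′ on the minus strand, which is the strand of all 3 genes.
Hspa1a, chr17:34972242-34972271: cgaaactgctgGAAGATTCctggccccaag
Hspd1, chr1:55088053-55088082: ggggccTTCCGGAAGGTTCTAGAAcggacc
The Hspa1a match began 104 bases before the start of the gene, which spans chr17:34969359-34972156. Hspd1 (chr1:55077833-55088243) has 2 annotated starts with a window, and its 3 overlapping matches lay 144, 139 and 134 bases before the inner start; the window of the outermost start had none. Hmgb1 (chr5:149046702-149053057) had no match in the window of either start. An interferon-stimulated core, searched on both strands as 2 copies of GAAA with any 2 bases between them, was in no window of the 3 genes. Of 32851 upstream windows of the same length, 12.8% held a heat-shock pair and 2.98% an interferon core. A match describes letters, not a binding site. Hspa1a has a near-identical neighbour, the gene Hspa1b, whose upstream window differed at 3 of 250 bases and held the same 30-base stretch; whether the assay reads both copies is not given, so values of Hspa1a are uncertain in that respect.

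Levels are given as delta-Ct, in cycles: the threshold cycle (Ct) of a gene minus the mean Ct of Hprt1, Hsp90ab1 and Gapdh in the same column. One cycle is a step of 1 on the log2 scale, and a high delta-Ct is a low level. Ct values above 35 or blank had been set to 35, which puts a highest possible delta-Ct (the cap) on each column. The caps were 13.15 in wild-type Mock, 15.10 and 15.63 in TLR7-/- Mock and R848, and 12.43 and 14.93 in IFNAR-/- Mock and R848, while for wild-type R848 the cap was not identified and is at least 16.67. From the caps, the mean Ct of the reference genes was lower after R848 in each strain, by 0.53 cycles in TLR7-/-, by 2.50 cycles in IFNAR-/- and by at least 3.52 cycles in wild type. The part of this shift in the responses was not tested. Tlr7 itself was read at a delta-Ct of 9.20 and 9.33 in the TLR7-/- columns; where its product lies relative to the deletion is not given, so it does not check the label, and no Ifnar gene is on the plate.

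Hmgb1 had its highest and its lowest level in wild-type spleen. In wild type the delta-Ct of Hmgb1 stood at 10.55 for Mock against 6.22 for R848. In TLR7-/- it was 7.60 in Mock and 7.23 in R848, and in IFNAR-/- it was 7.63 in Mock and 7.03 in R848. The wild-type Mock column stood apart, since the other 5 columns lay between 6.22 and 7.63, a range of 1.41 cycles, against 4.33 cycles over all 6 columns. In order from high to low level, the columns were wild-type R848, IFNAR-/- R848, TLR7-/- R848, TLR7-/- Mock, IFNAR-/- Mock and wild-type Mock. With no spread available, no neighbours in this order can be called different. As a share of the reference mean, computed as 2 to the minus delta-Ct, Hmgb1 went in wild type from 0.0667% (Mock) to 1.34% (R848), and the other columns held 0.505% to 0.765%.

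**Figure D1:**
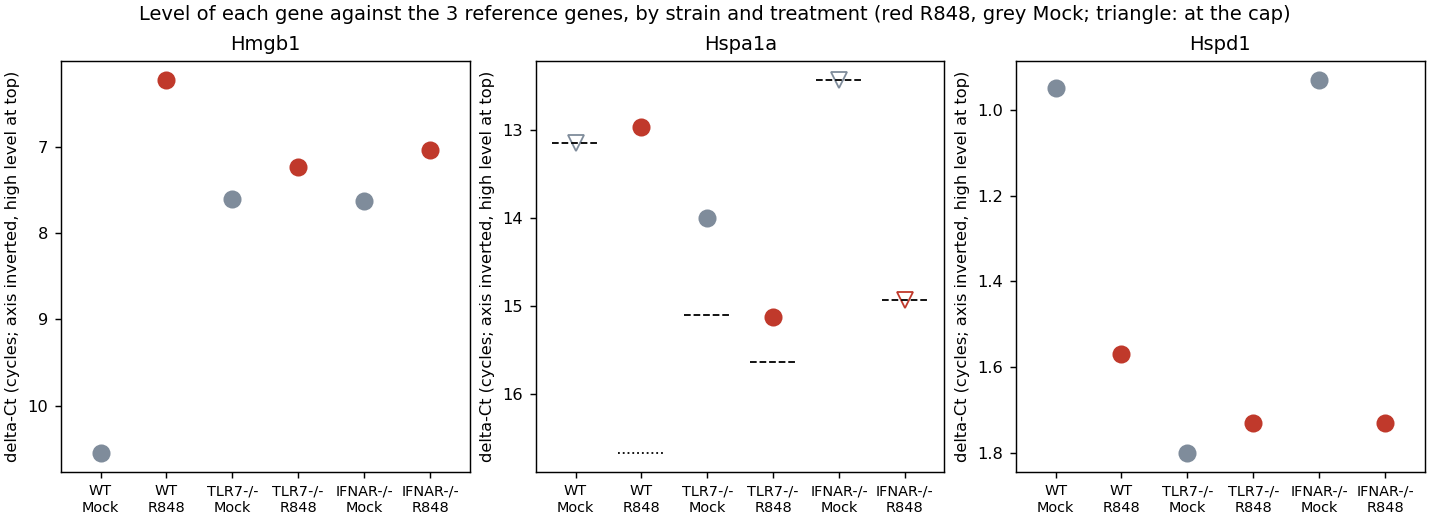
Delta-Ct (cycles, axis inverted so that higher points are higher levels) of Hmgb1, Hspa1a and Hspd1 in the 6 columns, 1 value each and a separate scale per gene; wild-type points are means of 2 experiments, triangles are values at the cap and dashed lines in the Hspa1a panel mark each column's cap (dotted: a lower limit on the cap). Hmgb1 is low in wild-type Mock alone (10.55), Hspa1a is at the cap in 3 columns, and Hspd1 stays between 0.93 and 1.80.

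After R848, Hmgb1 was 20.1-fold higher than Mock in wild type, a log2 difference of 4.33. In TLR7-/- it was 1.29-fold higher (0.37) and in IFNAR-/- 1.52-fold higher (0.60), both short of 2-fold. In wild type 38.1% of the 84 pathway genes were at least 2-fold higher, in TLR7-/- 4.76% and in IFNAR-/- 53.6%. Among the measured genes of each strain, 1 of 77 had a larger rise than Hmgb1 in wild type, 14 of 78 did in TLR7-/- and 51 of 69 did in IFNAR-/-. In IFNAR-/- Hmgb1 thus lay below the plate's median response of 1.25, whereas in wild type the median was 0.41 and in TLR7-/- it was 0.07. The rise in wild type had the same direction, at 2-fold or more, with every other reference and centring tried. The small rise in IFNAR-/- did not hold its direction: it was -0.02 with all 5 housekeeping genes as reference, -1.0 with Actb alone and -1.45 when columns were centred on the median gene.

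**Figure D2:**
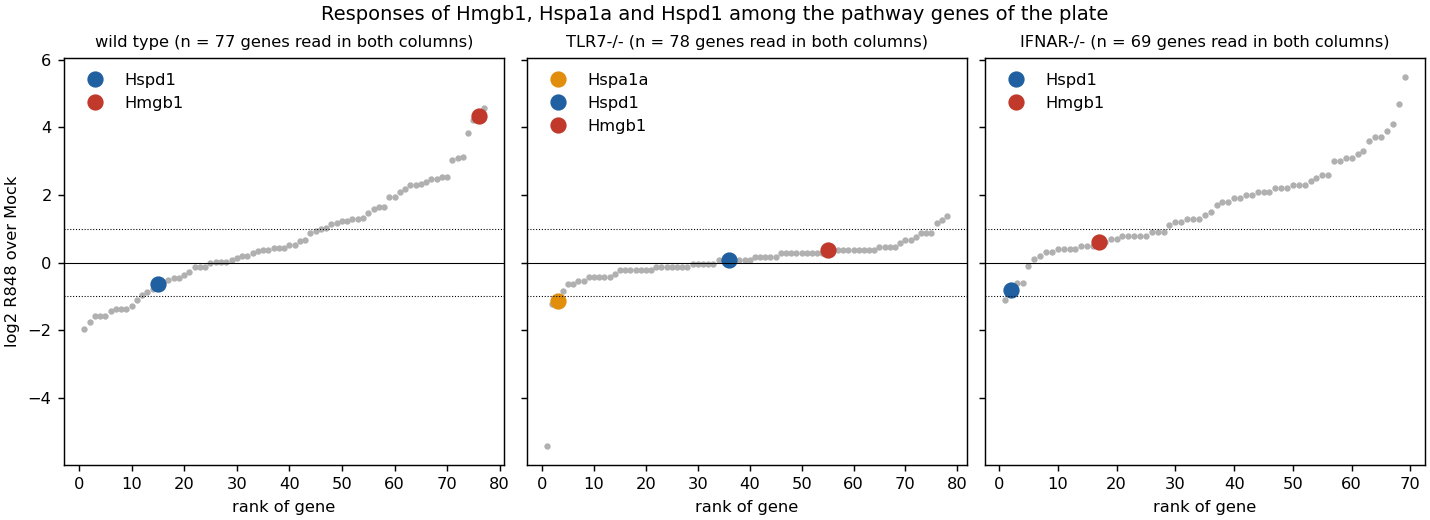
Log2 difference R848 over Mock of the measured pathway genes in rank order (x axis, rank; y axis, log2), 1 panel per strain, with Hmgb1, Hspa1a and Hspd1 marked where they have a value. Hmgb1 is near the top in wild type (4.33) and in the lower part in IFNAR-/- (0.60), Hspd1 is near the bottom in IFNAR-/- (-0.80), and Hspa1a is near the bottom in TLR7-/- (-1.13).

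The level in wild-type Mock was also compared with the Mock levels of the other strains. Hmgb1 was 7.73-fold lower in wild-type Mock than in TLR7-/- Mock, a log2 difference of -2.95. Of 75 measured genes, 7 were lower still, and 48.8% of the pathway genes were at least 2-fold lower in that comparison, with a plate median of -0.93. Against IFNAR-/- Mock, Hmgb1 in wild-type Mock was 7.57-fold lower (-2.92). Here none of the 70 measured genes was lower, 4.76% of the pathway genes were at least 2-fold lower and 31% higher, and the plate median was 0.33. Between the Mock columns of the deficient strains Hmgb1 differed by 0.03 cycles, while there the plate median was -1.58, with 60.7% of genes at least 2-fold lower in IFNAR-/- and 1.19% higher. After R848 Hmgb1 was 2.01-fold higher in wild type than in TLR7-/-, a comparison in which 14.3% of pathway genes passed 2-fold upward and 29.8% downward. It was 1.75-fold higher than in IFNAR-/-, where 15.5% of genes were higher and 29.8% lower. Between the R848 columns of the deficient strains Hmgb1 was higher in IFNAR-/- by a log2 difference of 0.20, and 8.33% of genes were at least 2-fold higher there. When the Mock column of another strain was set against wild-type R848, the log2 rise was 1.38 with TLR7-/- Mock and 1.41 with IFNAR-/- Mock, instead of 4.33. The wild-type Mock reading of Hmgb1 was late, at a Ct of 32.4, which is 2.6 cycles before the cap. A reading at the cap in 1 of the 2 averaged experiments cannot be recognised in the mean; the wild-type rise would then be a lower bound.

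A difference of responses sets the log2 rise of a gene in one strain against that in another. For Hmgb1 it was 3.96 for wild type minus TLR7-/-, where the plate median was 0.56, 4 of 75 genes had a larger difference and 34.7% had one of 1 or more (44% in either direction). For wild type minus IFNAR-/- it was 3.73, where the median was -0.82, none of 69 genes had a larger difference and 4.35% had one of 1 or more (49.3% in either direction). For IFNAR-/- minus TLR7-/- it was 0.23, where the median was 1.43 and 57 of 69 genes had a larger difference. The first of these comparisons and the second use the same wild-type columns, so the low wild-type Mock level enters both.

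Differences of Ct between 2 genes in a column need no reference genes. Hmgb1 came 9.6 cycles after Hspd1 in wild-type Mock, but 4.65 cycles after it once R848 had been given. The distance was 5.8 and 5.5 cycles in TLR7-/- Mock and R848, and 6.7 and 5.3 cycles in IFNAR-/- Mock and R848. The wild-type Mock column was again the one apart: the range was 4.95 cycles over all columns and 2.05 without it. Against Actb, a cytoskeletal housekeeping gene that was not a reference, Hmgb1 moved closer by 3.7 cycles after R848 in wild type and by 0.3 in TLR7-/-, and in IFNAR-/- it moved away, a change of -1.0.

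**Figure D3:**
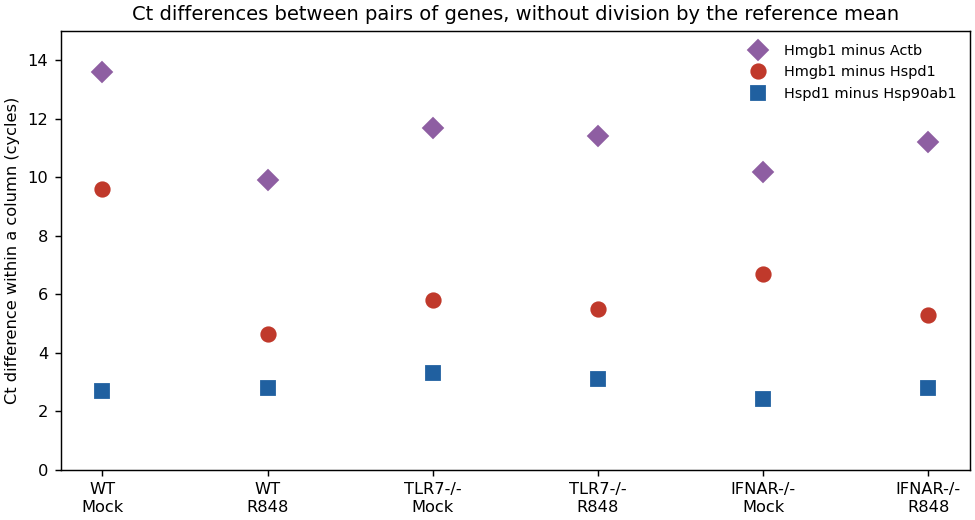
Ct of the first gene minus Ct of the second (cycles) for pairs among Hmgb1, Hspd1 and housekeeping genes in the 6 columns, 1 value each, without division by the reference mean. Pairs with Hmgb1 are far apart in wild-type Mock (9.6 cycles for Hmgb1 and Hspd1), while Hspd1 and Hsp90ab1 stay 2.4 to 3.3 cycles apart.

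Among 68 genes at the cap in no column, the delta-Ct profile nearest to that of Hmgb1 over the 6 columns was that of Tlr7, the receptor of R848, with a root-mean-square distance of 0.74 cycles after centring each gene on its mean. Mapk9, a stress-activated kinase, followed at 0.851 and Tlr4, the receptor of lipopolysaccharide and of HMGB1, at 0.874; the median distance was 1.33. Tlr4 went from a delta-Ct of 9.30 to 4.72 with R848 in wild type, and lay between 6.63 and 8.73 in the other columns, so it too had its extremes in wild type. Tlr7 went from 12.00 to 9.47 in wild type. The Tlr7 profile includes the TLR7-/- columns (9.20 and 9.33), where the place of its product relative to the deletion is not given. Ranked by correlation instead of distance, the first genes were Tlr7, Tlr4 and Mapk8ip3. All profiles share the same 6 RNA samples and the same reference mean.

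Hspd1 varied less across the columns than Hmgb1. For wild type the Hspd1 delta-Ct read 0.95 under Mock against 1.57 under R848. It was 1.80 and 1.73 in TLR7-/- Mock and R848, and 0.93 and 1.73 in IFNAR-/- Mock and R848. The columns spanned 0.87 cycles in all, and after R848 the strains lay within 1.57 to 1.73. The Mock columns of wild type and IFNAR-/- held the highest levels, 51.8% and 52.5% of the reference mean, and the other columns held 28.7% to 33.7%. All readings came early, at a Ct of 23.5 or less, far from the cap.

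After R848 Hspd1 was 1.54-fold lower in wild type (log2 -0.62) and 1.74-fold lower in IFNAR-/- (-0.80), and 1.05-fold higher in TLR7-/- (0.07). None of these reached 2-fold; at least 2-fold lower were 13.1% of the pathway genes in wild type, 3.57% in TLR7-/- and 2.38% in IFNAR-/-. Relative to the plate, Hspd1 lay low in wild type and IFNAR-/-: 62 of 77 measured genes had a higher response in wild type and 67 of 69 in IFNAR-/-, against 38 of 78 in TLR7-/-. With Hprt1 and Gapdh alone as reference, which takes the heat-shock gene Hsp90ab1 out of the reference mean, the log2 difference was -0.88 in wild type, 0 in TLR7-/- and -1.0 in IFNAR-/-. With Hsp90ab1 alone it was -0.10, 0.20 and -0.40. The 2-fold mark was passed in wild type with all 5 housekeeping genes (-1.12) and in IFNAR-/- as well (-1.42), so the call depends on the reference.

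The Ct difference between Hspd1 and the reference gene Hsp90ab1 was 2.7 and 2.8 cycles in wild-type Mock and R848, 3.3 and 3.1 in TLR7-/-, and 2.4 and 2.8 in IFNAR-/-, a range of 0.9 cycles, no smaller than the 0.87 cycles of the Hspd1 delta-Ct itself. The log2 difference of Hsp90ab1 itself was -0.52 in wild type, -0.13 in TLR7-/- and -0.40 in IFNAR-/- against the mean that contains it. The difference of responses of Hspd1 was -0.69 for wild type minus TLR7-/-, -0.87 for IFNAR-/- minus TLR7-/- and 0.18 for wild type minus IFNAR-/-. For IFNAR-/- minus TLR7-/-, each of the other 68 measured genes had a higher difference, and 62.3% of 69 genes differed by 1 or more in either direction. The TLR7-/- Mock column is where Hspd1 was lowest: against it, wild-type Mock was 1.80-fold higher and IFNAR-/- Mock 1.83-fold higher. With that column as control, the log2 response became 0.23 in wild type and 0.07 in IFNAR-/-. The profiles nearest to Hspd1 were those of Nfkbil1, Fadd, an adaptor of death receptors, and Hras1, a small GTPase, at 0.405, 0.464 and 0.523 cycles, with a median of 1.17 over 68 genes; these are flat profiles, and their order is another one by correlation (Tradd, Nfkbil1, Csf2).

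**Figure D4:**
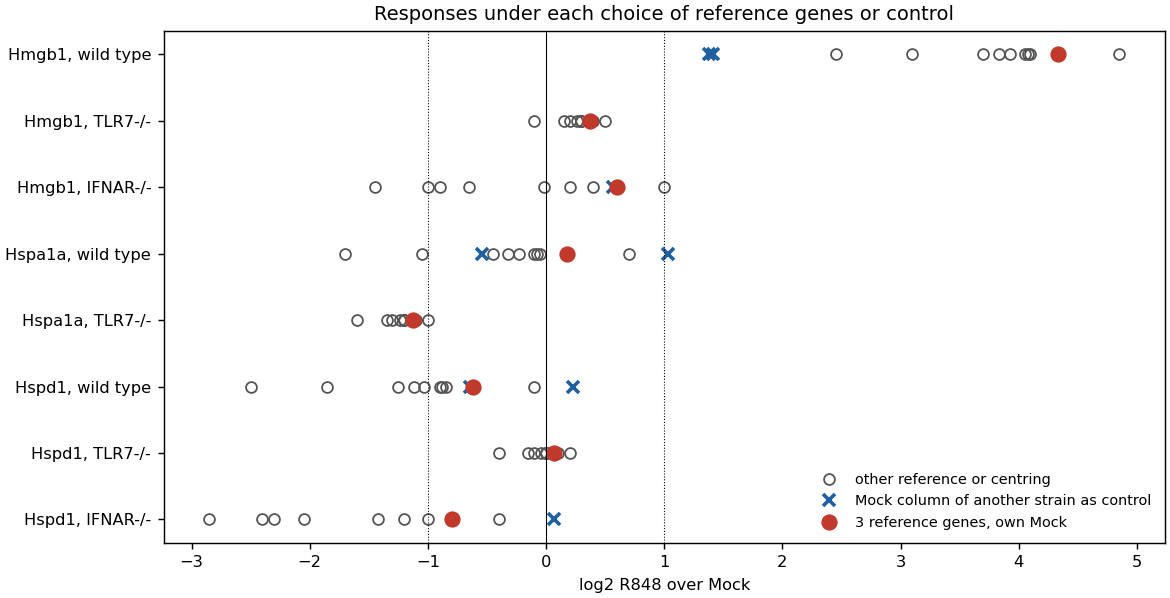
Log2 difference R848 over Mock of Hmgb1, Hspa1a and Hspd1 by strain under the reported reference (red), under another reference or centring (open circles) and with another strain's Mock as control (blue crosses). Dotted lines mark 2-fold. Hspa1a in IFNAR-/- has no value and is not drawn. Points of Hspa1a in wild type are bounds or of open sign, except with TLR7-/- Mock as control (1.03). Hmgb1 in wild type stays above 1 throughout (1.38 to 4.85), whereas Hmgb1 in IFNAR-/- falls on both sides of 0 and Hspd1 in wild type and IFNAR-/- on both sides of -1.

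Hspa1a was at the cap in 3 of the 6 columns and within 1.1 cycles of it in both TLR7-/- columns; in wild-type R848 it was read at least 3.7 cycles before the cap. In wild type Hspa1a was at the cap under Mock, at 13.15, and measured under R848, at 12.97. In TLR7-/- it was 14 in Mock and 15.13 in R848. In IFNAR-/- it stood at the cap in Mock (12.43) and in R848 (14.93), so only an upper limit on its level exists there. In TLR7-/-, where both values were measured, Ct was 33.9 and 34.5, that is 1.1 and 0.5 cycles before the cap.

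In wild type Hspa1a was at least 1.13-fold higher after R848 (log2 at least 0.18), a bound below 2-fold. This direction is not settled, since with Hprt1 and Gapdh alone as reference the bound was -0.08, which leaves the sign unknown. In TLR7-/- Hspa1a was 2.19-fold lower after R848 (log2 -1.13), which makes it a member of the 3.57% of pathway genes lower by 2-fold or more there, and 75 of 78 measured genes had a higher response. That value kept its direction and 2-fold size with every other reference and centring tried, from -1.60 to -1.0. These choices shift every gene in TLR7-/- by only -0.47 to 0.13. They leave the late readings, at a Ct of 33.9 and 34.5, as they are. In IFNAR-/- no response can be given. Across strains after R848, Hspa1a was 4.47-fold higher in wild type than in TLR7-/- and at least 3.89-fold higher than in IFNAR-/-. With the deposited reference, the wild-type response exceeded that of TLR7-/- by at least 1.31 on the log2 scale. This bound was 0.92 with all 5 housekeeping genes, 0.30 when centred on the median gene and 0.98 on the median response. The reading in wild-type R848 had a Ct of at most 31.3, and the wild-type R848 column had the lowest reference Ct of the 6 columns. A reading at the cap in 1 of the 2 averaged R848 experiments cannot be recognised in this mean. The wild-type R848 level of Hspa1a would then be too high, and the values above that use it would not be lower bounds.

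The receptors and signalling genes through which these danger signals are known to act were counted in lists. Of 5 receptors (Tlr2, Tlr4, Tlr9, and the co-receptors Cd14 and Ly96), 3 were at least 2-fold higher after R848 in wild type, 1 in TLR7-/- and 3 in IFNAR-/-, where another 1 was lower. On the whole plate, 38.1%, 4.76% and 53.6% of the 84 pathway genes were at least 2-fold higher in these strains, and 2.38% were lower in IFNAR-/-. The measured receptors had median log2 differences of 1.03, 0.17 and 2.05, against plate medians of 0.41, 0.07 and 1.25. Tlr4 was 23.9-fold higher in wild type (4.58), the only measured gene above Hmgb1, and it had a log2 difference of -0.43 in TLR7-/- and 2.10 in IFNAR-/-. Tlr9, the endosomal receptor of DNA, had 1.03, 0.37 and 3.00. Tlr2 had 0.43, 0.47 and 2.0. Cd14 is the receptor counted as higher in TLR7-/- and as lower in IFNAR-/-, each time against a reading at the cap. Its well, A04, lies beside that of Ccl2, A03, and the 2 genes moved in opposite directions. In TLR7-/- the delta-Ct of Cd14 went from 15.10 (cap) to 5.73 and that of Ccl2 from 4.70 to 10.13. In IFNAR-/- Cd14 went from 8.13 to 14.93 (cap) and Ccl2 from 12.43 (cap) to 5.63. Whether these wells were read correctly was not tested, and the calls of both genes are uncertain. Centring on the median gene lowers every response by 1.23 in wild type and by 2.05 in IFNAR-/-, which turns the wild-type receptor median below 0 and brings that of IFNAR-/- to 0. The plate medians fall by the same amounts, so the distance between receptors and plate stays as it was.

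Of 8 adaptor and signalling genes (Myd88, Tirap, Ticam1, Ticam2, Irak1, Irak2, Traf6 and Map3k7), 5 were higher in wild type, none in TLR7-/- and 6 in IFNAR-/-, with none lower and 1 open in each strain; the measured medians were 2.28, 0.27 and 3.10, against plate medians of 0.41, 0.07 and 1.25. Of all 84 pathway genes, 38.1%, 4.76% and 53.6% were higher by 2-fold or more in these strains. Myd88, the adaptor of most TLRs, had log2 differences of 2.48, 0.17 and 3.20, and Tirap, which bridges TLR2 and TLR4 to MYD88, had 2.38, 0.67 and 3.30. The ubiquitin ligase gene Traf6 had 3.03, 0.37 and 1.80. The gene open in each strain was Irak1, which stood at the cap in the Mock column of each. Of 12 target genes (Tnf, Il1a, Il1b, Il6, Il12a, Il10, Ccl2, Cxcl10, Ifnb1, Ptgs2, Nfkbia and Tnfaip3), 3 were higher and 3 lower in wild type, 1 and 1 in TLR7-/-, and 8 and none in IFNAR-/-; the measured medians were 0.11, 0.07 and 1.90. In wild type the 3 of 12 higher stand beside 38.1% of the plate and the 3 of 12 lower beside 13.1%, with 2 targets open. In IFNAR-/- the 8 of 12 higher stand beside 53.6% of the plate. The anti-inflammatory cytokine gene Il10 had a log2 difference of 4.23 in wild type, just below Hmgb1, -0.23 in TLR7-/- and at least 7.6 in IFNAR-/-. Tnfaip3, an inhibitor of NF-κB signalling, had 2.08, 0.87 and 2.5. Ccl2, in the well beside Cd14, was the 1 target lower in TLR7-/- (-5.43) and was among those higher in IFNAR-/- (at least 6.8). In IFNAR-/- Hmgb1 and Hspd1 stayed within 2-fold with the deposited reference, while 53.6% of the whole plate was at least 2-fold higher.

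The plate-wide counts moved with the scaling. In wild type 32 genes were higher and 11 lower, but 22 and 17 with all 5 housekeeping genes, 39 and 5 with Hsp90ab1 alone, 23 and 15 when centred on the median response, and 15 and 32 when centred on the median gene. In IFNAR-/- the counts of 45 and 2 became 23 and 8 when centred on the median response and 14 and 29 when centred on the median gene. In TLR7-/- the counts of 4 and 3 became 7 and 3 with Hsp90ab1 alone and 3 and 4 when centred on the median gene.

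Spleen is a mixture of cells, and in bulk RNA fewer cells of a type and less RNA per cell cannot be told apart. The plate holds few lineage markers. Whether the genes listed as markers follow cell numbers rather than changed expression was not tested. Cd14, Tlr2, Tlr4 and Ly96 were also counted among the receptors above. Beside the counts below, 38.1%, 4.76% and 53.6% of the 84 pathway genes were at least 2-fold higher in wild type, TLR7-/- and IFNAR-/-. At least 2-fold lower were 13.1%, 3.57% and 2.38%. Of 6 monocyte, macrophage and neutrophil markers, 3 were higher and none lower after R848 in wild type, 1 was higher in TLR7-/-, and 4 were higher and 1 lower in IFNAR-/-. Their summed level was 17.8% of the reference mean for wild-type Mock, 29.5% for its R848 column, against 29.7% and 30.8% in TLR7-/- and 14.2% and 38.7% in IFNAR-/-. This sum was lowest in the Mock columns of IFNAR-/- and wild type. Pglyrp1 had the highest level of the 6 markers in every column and made up most of each sum. Cd14 stood at the cap in TLR7-/- Mock and in IFNAR-/- R848, so these sums do not hold the same genes either. Whether the sum goes with the Hmgb1 level was not tested. Of 3 B cell markers (Btk, Cd86 and Ly86), 1 was lower in wild type, namely Btk, and their sum went from 27.9% to 17.1%. None was called in the other strains, where the sum went from 23.4% to 19.3% in TLR7-/- and from 12.3% to 19.2% in IFNAR-/-. The B cell kinase Btk stood at the cap in both TLR7-/- columns and both IFNAR-/- columns, in the first well of the plate. Only in wild type was Btk read, at a delta-Ct of 4.10 and 5.67, so the sums of the strains do not hold the same genes. Of 3 T and NK cell markers, 2 were lower in wild type, none was called in TLR7-/- and 1 was higher in IFNAR-/-. Their sums in Mock and R848 were 1.22% and 0.531% in wild type, 2.03% and 2.08% in TLR7-/-, and 0.637% and 0.762% in IFNAR-/-. Of these 3 genes (Il2, Ifng and Lta), Lta had the highest level in every column and made up most of each sum. Il1r1, Ppara and Muc13 were listed as stromal markers, but whether they mark the stroma of the spleen was not tested. In wild type 1 was higher (Ppara, against a Mock reading at the cap), in TLR7-/- none and in IFNAR-/- 2 (Il1r1 and Muc13). In Mock and R848 the 3 summed to 0.402% and 0.530% in wild type, 0.673% and 0.751% in TLR7-/-, and 0.211% and 0.631% in IFNAR-/-. The part of cell make-up in the Hmgb1, Hspa1a and Hspd1 values was not tested.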

How the data were processed

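Gene levels were read with a quantitative PCR plate (RT² Profiler, TLR pathway) in spleen RNA. Per the file headers, the deposited delta-Ct values are log2-scale differences, in cycles, from the mean of Hprt1, Hsp90ab1 and Gapdh. The authors' deposited fold difference is a ratio of R848 over Mock; it was recomputed from delta-Ct and matched for 89 of 89 genes in each strain. Per the series' design text, Ct above 35 or blank was set to 35 and wild-type values summarise 2 experiments. Raw Ct was not used here; neither were 6 further per-sample columns, which restate delta-Ct on a linear scale.

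The log2 response was Mock minus R848 delta-Ct. The cap of a column was its highest delta-Ct, shared by at least 3 genes, and 35 minus the cap gave the reference Ct; in wild-type R848 only 1 gene stood there, so both are limits. Folds with Mock at the cap are "at least"; where the cap hides the direction, the response is open. Genes were counted at 2-fold (log2 of 1). A test across genes was planned for wild type had its experiments been separate in the tables; it was not run, and the depth of a reading is its Ct alone. Named genes were the 3 genes, the housekeeping genes, the 3 nearest profiles and listed genes at 2-fold or more. Tlr2 and Tlr9 were added for completeness of the receptors, and Cd86 and Ly86 for that of the B cell markers. Btk was named after its values were seen. The genes and lists were chosen with earlier results of these data known. Alternatives were other references, centrings, thresholds, filters and controls. Calculations used Python 3.11.15, numpy 2.4.6, pandas 2.3.3 and matplotlib 3.10.9. Direction calls at the cap were tested on simulated data modelled on the IFNAR-/- columns, with noise far below the 2-fold mark. A shift of a whole column was also put in and taken out. Averaging of 2 experiments, noise of late readings, profile distances and the sequence search were not covered.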

Additional observations from a re-analysis of the deposited data

Results flagged for a closer look

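For 3 differences the single value of one strain went one way and that of the other the opposite way; with 1 value per treatment and strain, the difference was not tested in any of them. Hspa1a had a log2 response of at least 0.18 in wild type and -1.13 in TLR7-/-, a difference of at least 1.31. Hspd1 had -0.62 in wild type and 0.07 in TLR7-/-, a difference of -0.69. Hspd1 had -0.80 in IFNAR-/- and 0.07 in TLR7-/-, a difference of -0.87. The opposite signs are not settled in any of them. The 0.07 of Hspd1 in TLR7-/- was -0.10 with Hprt1 alone, -0.15 when centred on the median gene and 0.20 with Hsp90ab1 alone. With Hprt1 and Gapdh as reference, the bound of Hspa1a in wild type was -0.08, which leaves its sign unknown.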

How the results depend on the processing

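No paired analysis was possible because the table gives the 2 wild-type experiments only as their mean, and for the same reason no replicate could be left out. The log2 responses of Hmgb1 in wild type (1.38 to 4.85) and Hspa1a in TLR7-/- (-1.60 to -1.0) kept direction and 2-fold size under all alternatives run for them. So did the Hmgb1 differences wild type minus TLR7-/- (2.95 to 4.35) and wild type minus IFNAR-/- (3.50 to 4.58). Of these, only the wild-type response of Hmgb1 was also run with another strain's Mock as control (1.38 and 1.41). The others met other references and centrings only. Those leave the low wild-type Mock reading of Hmgb1 and the late readings of Hspa1a in place. Hspa1a in IFNAR-/- has no value to vary. With the 5 housekeeping genes together as reference, then with columns centred on the median gene, then on the median response (chosen after seeing the data): Hmgb1 in IFNAR-/- was -0.02, -1.45 and -0.65, and its IFNAR-/- minus TLR7-/- difference -0.28, -1.60 and -0.95; Hspa1a in wild type was -0.32, -1.05 and -0.23 (sign open), and its wild type minus TLR7-/- difference 0.92, 0.30 and 0.98; Hspd1 in wild type was -1.12, -1.85 and -1.03, in IFNAR-/- -1.42, -2.85 and -2.05, its wild type minus TLR7-/- difference -1.08, -1.70 and -1.03, and its IFNAR-/- minus TLR7-/- difference -1.38, -2.70 and -2.05. Hspd1 in TLR7-/- was -0.04 with the 5 genes and -0.15 with the median gene, and its wild type minus IFNAR-/- difference 1.00 and 1.02 with the centrings. These centrings shift all genes alike, by -1.23 and -0.41 in wild type, -0.22 and -0.07 in TLR7-/-, and -2.05 and -1.25 in IFNAR-/-; the 5 genes shift them by -0.50, -0.11 and -0.62. With Hprt1 alone, Hspa1a in wild type was -0.10, Hspd1 in TLR7-/- -0.10, Hspd1 in IFNAR-/- -1.20 and its IFNAR-/- minus TLR7-/- difference -1.10; with Hprt1 and Gapdh, -0.08 for Hspa1a in wild type, and -1.0 for both Hspd1 values; with Gapdh alone, -0.05 for Hspa1a in wild type and -0.05 for the Hspd1 wild type minus IFNAR-/- difference; with Hsp90ab1 alone, 1.00 for Hmgb1 in IFNAR-/-. With Actb and Gusb alone (chosen after seeing the data), Hmgb1 in IFNAR-/- was -1.0 and -0.90, Hspa1a in wild type -0.45 and -1.70, Hspd1 in wild type -1.25 and -2.50 and Hspd1 in IFNAR-/- -2.40 and -2.30; with Gusb, Hmgb1 in TLR7-/- was -0.10 and Hspd1 in TLR7-/- -0.40. With TLR7-/- Mock as control, Hspa1a in wild type was 1.03, Hspd1 in wild type 0.23 and Hspd1 in IFNAR-/- 0.07; with IFNAR-/- Mock (chosen after seeing the data), Hspa1a in wild type was -0.54, with the sign open. Of counts at 2-fold, 43 in wild type became 23 at 3-fold; 7 in TLR7-/- became 16 at 1.5-fold, 2 at 3-fold and 4 without the first 4 wells; 47 in IFNAR-/- became 31 with the median response and 14 with TLR7-/- Mock as control. The cause was not tested; precision is limited by 1 value per column and, for Hspa1a, by the cap.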
